A study of Mus musculus with 18 samples.

Results

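Aminoacyl-tRNA synthetases were followed through calcium-depletion stress in MIN6 cells, a line of mouse insulinoma cells that makes insulin. The members were chosen by gene symbol among the RefSeq transcripts of the deposited tables, as the cytosolic enzymes, the mitochondrial enzymes whose symbols end in 2, and the scaffold proteins Aimp1, Aimp2 and Eef1e1, with Lars2 left out because its reads are doubtful. Of 39 candidates, 37 had reads in all 9 mRNA-seq libraries and were kept, of 10125 genes that met the same condition. Grouped by symbol, they were 20 cytosolic enzymes, 14 mitochondrial enzymes and 3 scaffold proteins. No Gars2 or Kars2 was among the candidates, and Gars and Kars were counted as cytosolic. Whether a gene also serves the other compartment was not examined. Nars2 and Rars2 were not kept, since they had reads in 6 and 8 of the 9 libraries. In Ribo-seq, 34 of the 37 members had reads in all 9 libraries, and the others were Fars2, Pars2 and Wars2, with reads in 7, 8 and 8 libraries.

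All cells were MIN6 cells grown in the same medium. Control cells received DMSO, the solvent, for 18 h, and treated cells received 200 µM CPA for 1 h (CPA1) or for 18 h (CPA18). CPA, cyclopiazonic acid, blocks the pump that returns calcium to the endoplasmic reticulum. Each group was sampled in 3 experiments by mRNA-seq of fragmented poly(A) RNA and by Ribo-seq, which sequences the RNA fragments that ribosomes protect, so that 18 libraries were compared. MIN6 is a single tumour-derived line, and the control had no matching 1 h time point. All 13 beta-cell markers looked for had reads in all 3 control mRNA-seq libraries, as did 3 of 4 alpha-cell markers.

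The libraries held between 520960 and 4755030 reads in mRNA-seq and between 168129 and 1083297 in Ribo-seq. Reads on Lars2 took 45.1, 7.19 and 15.1% of the control mRNA-seq libraries of experiments 1 to 3, 53.5, 38.1 and 8.27% of the CPA1 libraries and 54.8, 5.46 and 4.75% of the CPA18 libraries, but at most 3.51% of any Ribo-seq library. Ins1 and Ins2 took between 1.44 and 20.9% of the mRNA-seq reads. Because these shares move the library totals to which all levels are scaled, changes are also set beside the median gene and beside totals that omit these 3 genes. The control libraries of experiment 2 carry titles and descriptions that name different assays, and they were used as titled.

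An aminoacyl-tRNA synthetase joins an amino acid to its tRNA and so supplies the ribosome with charged tRNA. The cytosol and the mitochondrion use largely separate sets of these enzymes, both encoded in the nucleus, and several cytosolic enzymes are held in a multi-synthetase complex by the scaffold proteins Aimp1, Aimp2 and Eef1e1. When the kinases that sense stress phosphorylate eIF2α, general translation falls while translation of the factor ATF4 rises, and ATF4 is known to act through C/EBP-ATF response elements in the promoters of amino acid transporters, biosynthetic enzymes and some cytosolic synthetases.

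The promoter windows, from 250 bases before to 50 bases after the annotated start in the RefSeq annotation of GRCm38.p6, were searched on both strands for TGATGNAA, the core of that element. Windows were found for 27 of the 37 members, and 5 of them held a match. All 5 were cytosolic enzymes, which is 38.5% of the 13 cytosolic members with a window, against 2.54% of the 8159 tested genes with a window and 3.97% of all 32851 windows. No match was present in the 11 mitochondrial or the 3 scaffold windows. The 6 matches are shown because they are the sequence feature that these cytosolic promoters have in common. Each is printed 5′ to 3′ along the strand that carries the element, with the element in capitals and 8 flanking bases on each side.
Aars, chr8:111033722-111033745, strand opposite to the gene: ggctcggcTGATGCAAtgctcaag
Aars, chr8:111033843-111033866, strand opposite to the gene: gagcgctcTGATGAAAagtgaccc
Gars, chr6:55037963-55037986, strand opposite to the gene: ccggtgcaTGATGAAAtagcgcag
Iars, chr13:49682129-49682152, strand opposite to the gene: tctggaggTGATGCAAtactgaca
Tars, chr15:11399658-11399681, strand opposite to the gene: taaccagcTGATGCAAcgggactc
Yars, chr4:129189898-129189921, strand of the gene: agctcagcTGATGCAAcccgacgg
The upstream Aars element began 112 bases before the annotated start, and those of Gars and Tars began 30 and 15 bases before it. The second Aars element and those of Iars and Yars lay 9, 7 and 3 bases after the start. A match describes these letters only and is not evidence that a factor binds there.

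In control cells, cytosolic enzymes as a group stood at higher levels than mitochondrial ones. Levels are given in RPKM, the deposited reads per kilobase of transcript after scaling to the library total. Gars, the glycyl-tRNA synthetase, had the highest mRNA level, at 189, 174 and 252 RPKM in experiments 1 to 3, and its range did not overlap that of Sars, the seryl enzyme, at 64.8, 127 and 167 RPKM. From Sars downward, the ranges of neighbours in the order overlapped until the lowest member, Wars2, the mitochondrial tryptophanyl enzyme, at 0.437, 0.139 and 0.284 RPKM. Ribo-seq gave a like picture. Footprints per kilobase of coding sequence, scaled to the same total, came to 431 ± 80 for Gars (SD, n = 3), 299 for Sars and 149 for Wars, the tryptophanyl enzyme, followed by 132 ± 25.5 for Nars, the asparaginyl enzyme. The ranges of Gars, Sars and Wars did not overlap one another.

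Together the cytosolic enzymes took 0.176, 0.207 and 0.278% of the control mRNA-seq reads and 0.362, 0.33 and 0.431% of the control Ribo-seq reads. The 14 mitochondrial enzymes took 0.0119, 0.0112 and 0.0124% of the mRNA-seq reads and 0.0209, 0.0157 and 0.0141% of the Ribo-seq reads. The mitochondrial values therefore rest on few reads. All 14 mitochondrial genes had fewer than 10 reads in at least 1 control mRNA-seq library, against 1 of the 20 cytosolic genes.

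After 1 h of CPA no member passed the test in either assay. In mRNA-seq 0 of 37 were called by edgeR's quasi-likelihood test with Benjamini-Hochberg adjustment over all genes, against 0.217% of all genes called, and 2 members had an unadjusted p under 0.05, as did 616 of all 10125 genes. The median change of the 20 cytosolic genes was -0.081 on the log2 scale, where the median gene changed by -0.13. In Ribo-seq 0 of 34 were called, against 6.29% of all genes, and 1444 of all 8033 genes had an unadjusted p under 0.05. Among the members this was 1, Gars, with a log2 fold change of -0.33 ± 0.16 (SE) and an adjusted p of 0.228. Under DESeq2, for the genes it gave an adjusted p, and under the other alternatives 0 members were called as well. The summed share of cytosolic reads in Ribo-seq was 0.348, 0.362 and 0.338% after 1 h, inside the range of the controls.

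At the same time point, some genes of the amino acid response had begun to change. From a list of 23 amino acid response genes, 4 were called higher in mRNA-seq at 1 h, namely Atf4, Chac1, Ddit3 and Trib3. Over all genes 0.217% were called. Footprints on Atf4 stood at 64.6, 73.1 and 92.2 RPKM in control and at 398, 532 and 663 RPKM after 1 h, groups that did not overlap, with a log2 fold change of 2.76 ± 0.18 (SE) and an adjusted p of 3.28e-47. Asns, the asparagine synthetase that is a known ATF4 target, had a log2 fold change of -0.061 ± 0.27 (SE) in mRNA-seq at 1 h, with an adjusted p of 0.99.

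After 18 h of CPA most cytosolic synthetase mRNAs were higher than in control. In mRNA-seq 28 of 37 members were called higher and 0 lower, where 19.7% of all 10125 genes were called higher and 7.48% lower. By group, 18 of 20 cytosolic enzymes, 7 of 14 mitochondrial enzymes and 3 of 3 scaffold proteins were called. The median log2 fold change was 1.38 for the cytosolic genes, 0.94 for the mitochondrial genes and 1.59 for the scaffold genes, and 0.30 for the median gene. In such bulk libraries a change in the number of cells of a type and a change in RNA per cell cannot be told apart.

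**Figure D1:**
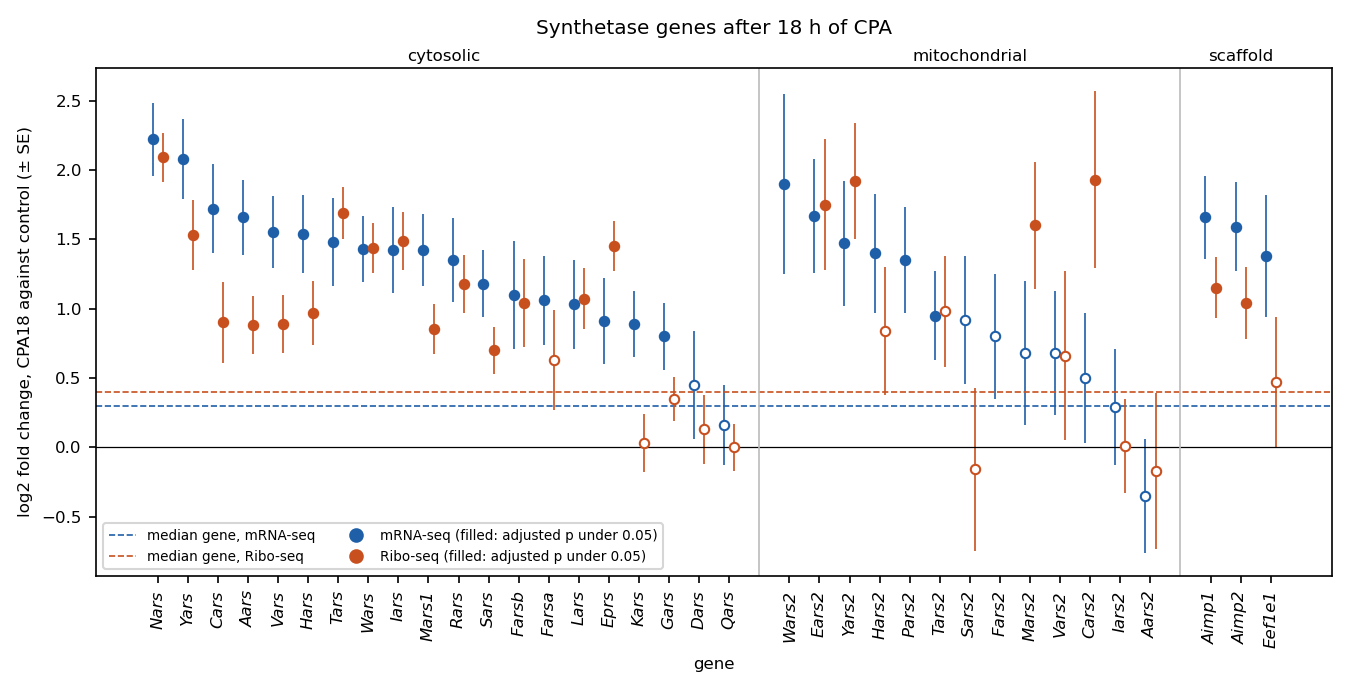
Log2 fold change from control to CPA18 of members in mRNA-seq (blue) and Ribo-seq (orange), by group, with bars of 1 SE from 3 experiments; not every member is drawn. Filled points passed an adjusted p of 0.05, dashed lines are the median gene of each assay (0.30 and 0.40), and Dars and Qars are the 2 cytosolic genes that are unfilled in both assays.

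Nars had the largest increase among the cytosolic genes. Its mRNA was at 36.1, 19.2 and 19.5 RPKM in the controls of experiments 1 to 3 and at 129, 102 and 102 RPKM in CPA18. Every CPA18 value lay above every control value, and the log2 fold change was 2.22 ± 0.26 (SE) with an adjusted p of 4.85e-07. Yars, the tyrosyl enzyme, rose from 10.4, 21.8 and 35.8 to 43.6, 119 and 118 RPKM. Its groups did not overlap either, with a log2 fold change of 2.08 ± 0.29 (SE) and an adjusted p of 8.18e-06.

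The other large increases were spread over enzymes for unlike amino acids. The cysteinyl enzyme Cars rose from 8.6, 9.04 and 10.7 RPKM to 21.5, 34 and 36.4 RPKM, without overlap (log2 fold change 1.72 ± 0.32 SE, adjusted p 0.000255). The alanyl enzyme Aars rose from 11.3, 21.7 and 34 RPKM to 40, 81.9 and 79.7 RPKM, again without overlap (1.66 ± 0.27, adjusted p 6.11e-05). Vars and Hars, the valyl and histidyl enzymes, had log2 fold changes of 1.55 ± 0.26 and 1.54 ± 0.28 (SE). Experiment 1 gave the lowest CPA18 value for Yars, Cars and Aars.

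All 12 cytosolic enzymes that are not held in the multi-synthetase complex were called higher, with a median log2 fold change of 1.51. Gars, the most abundant, changed least among them, from 189, 174 and 252 RPKM to 248, 379 and 452 RPKM. Its lowest CPA18 value lay under its highest control value, and the log2 fold change was 0.80 ± 0.24 (SE) with an adjusted p of 0.0145. The subunits of the phenylalanyl enzyme, Farsa and Farsb, changed alike, by 1.06 ± 0.32 and 1.10 ± 0.39 (SE), although Farsb was not higher in experiment 1. The Farsb transcripts share 9.66% of their 25-base stretches with Sgpp2, so that some of its reads cannot be assigned with certainty.

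Of the 8 enzymes of the multi-synthetase complex, 6 were called higher, with a median log2 fold change of 0.97. Iars and Mars1, the isoleucyl and methionyl enzymes, each changed by 1.42, with SEs of 0.31 and 0.26, and Rars, Lars, Eprs and Kars changed by 1.35 ± 0.30, 1.03 ± 0.32, 0.91 ± 0.31 and 0.89 ± 0.24 (SE). Eprs carries both the glutamyl and the prolyl activity on 1 protein. Mars1 overlaps Ddit3, and 1.49% of its 25-base stretches are shared with that gene.

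The other two enzymes of the complex did not pass the test. Qars, the glutaminyl enzyme, was at 24.6, 30.4 and 33.9 RPKM in control and at 17.1, 45.7 and 39.8 RPKM in CPA18. Its groups overlapped, and the log2 fold change was 0.16 ± 0.29 (SE) with an adjusted p of 0.717. Dars, the aspartyl enzyme, was at 9.39, 6.38 and 5.36 RPKM in control and at 15.9, 8.06 and 6.04 RPKM in CPA18. These overlapped as well, with a log2 fold change of 0.45 ± 0.39 (SE) and an adjusted p of 0.401. The difference between the complex and the free enzymes was not tested.

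The scaffold proteins were called higher together. Aimp1 rose from 36.4, 22 and 22 RPKM to 73.4, 83.2 and 84.2 RPKM, without overlap, with a log2 fold change of 1.66 ± 0.30 (SE) and an adjusted p of 0.000242. Aimp2 and Eef1e1 changed by 1.59 ± 0.32 and 1.38 ± 0.44 (SE). The Aimp2 groups overlapped, with a highest control value of 48.4 RPKM and a lowest CPA18 value of 37.9 RPKM. Eef1e1 had 3 reads in the control of experiment 1. Of the alternatives that kept the replicate block, 8 of 13 called Eef1e1, and 13 of 13 called Aimp1 and Aimp2. Aimp1 shares 12.6% of its 25-base stretches with the neighbouring gene Tbck.

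**Figure D2:**
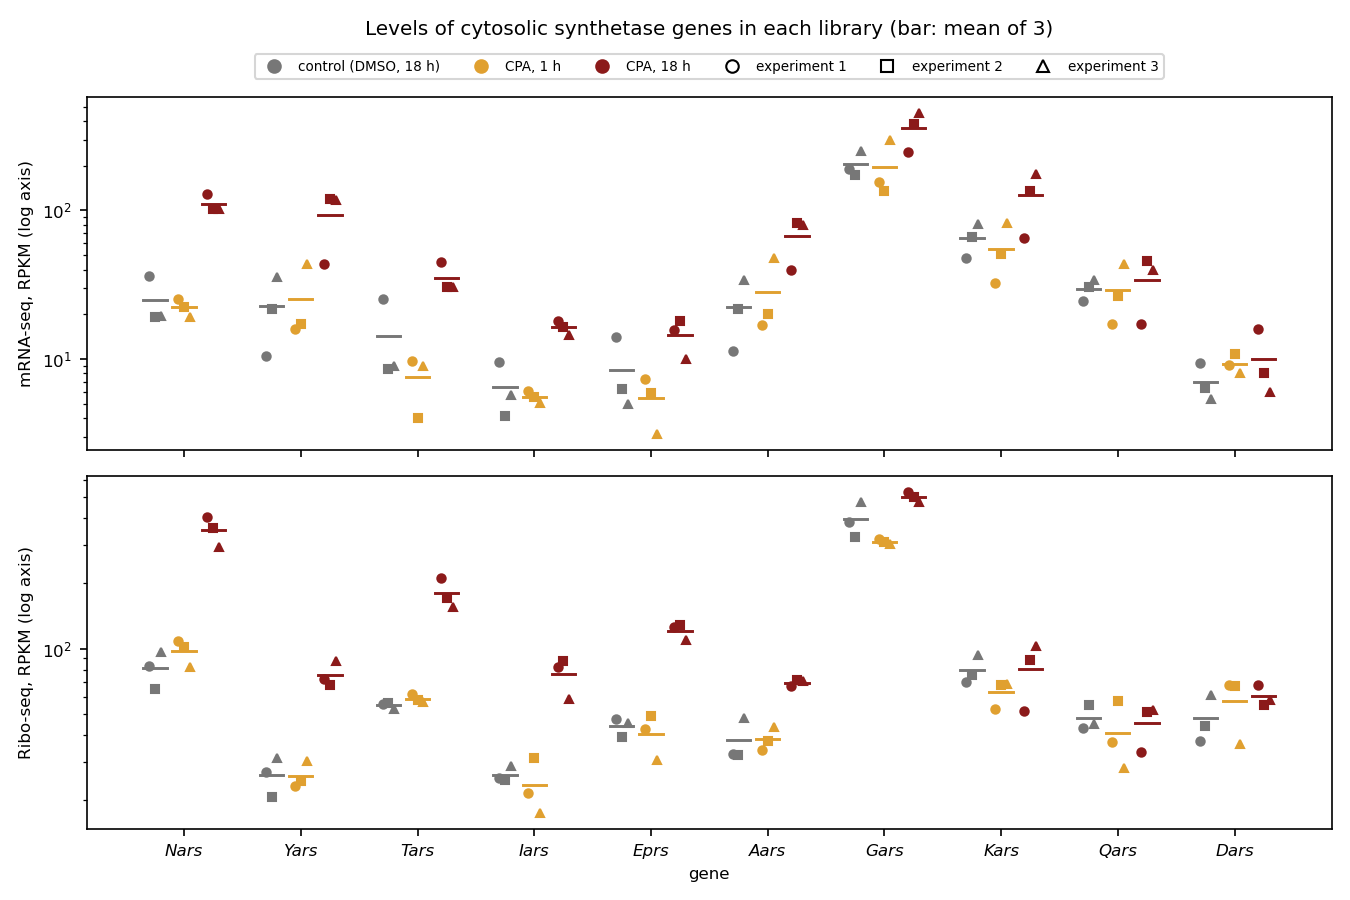
Levels in RPKM on a log axis of 10 cytosolic genes in each library, mRNA-seq above and Ribo-seq below. Grey is control, yellow CPA1 and red CPA18, marker shapes are the 3 experiments and bars are means. Nars and Yars separate fully in CPA18 in both assays, while Qars and Dars overlap their controls.

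The mitochondrial enzymes were more mixed. The 7 called higher included Ears2, Tars2 and Yars2, and the 7 not called had log2 fold changes between -0.35 for Aars2 and 0.92 for Sars2. Of the alternatives that kept the replicate block, 13 of 13 called Ears2, 5 of 11 called Tars2 and 4 of 13 called Yars2. Yars2 mRNA was lower in CPA18 in experiment 1, at 6.09 RPKM against 9.68 RPKM in control. Ears2, the glutamyl enzyme, had 1, 17 and 20 reads in the controls and 17, 144 and 47 in CPA18, or 0.293, 1.58 and 1.27 against 2.09, 4.63 and 3.99 RPKM. Its groups did not overlap, with a log2 fold change of 1.67 ± 0.41 (SE) and an adjusted p of 0.0038. The control reads of Wars2 were 1, 1 and 3, too few for a dependable fold.

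In experiment 1 the summed mitochondrial level barely differed between CPA18 and control. There the enzymes together took 0.0119% of the mRNA-seq reads in control and 0.012% in CPA18. Lars2 took 45.1% of the reads of that control library and 54.8% of those of CPA18. In experiments 2 and 3 the mitochondrial share went from 0.0112 to 0.0246% and from 0.0124 to 0.0269%. The cytosolic share was higher in CPA18 in every experiment, at 0.331 against 0.176%, 0.598 against 0.207% and 0.639 against 0.278%. Whether Lars2 reads have a part in the low value of experiment 1 was not tested.

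Set beside its mitochondrial partner for the same amino acid, the cytosolic gene had the larger mRNA change in 10 of 14 pairs. In mRNA-seq alanine gave the widest gap, with 1.66 for Aars and -0.35 for Aars2. Glutamate went the other way, with 0.91 for Eprs, which also carries the prolyl enzyme, and 1.67 for Ears2. Eprs was paired with both Ears2 and Pars2. For footprints the cytosolic gene had the larger change in 6 of 11 pairs. No difference within a pair was tested.

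Counted by experiment rather than by model, 29 of 37 members had a higher mRNA level in CPA18 than in control in all 3 experiments, where 36.5% of all genes did. Relative to the median gene, 27 of 37 were above it in all 3 experiments, against 29.2% of all genes. The CPA18 and control values did not overlap, with CPA18 higher, for 17 of 37 members, against 13.7% of all genes. The count of 28 was 24 with totals that omit Ins1, Ins2 and Lars2, of which 16 were cytosolic, where 16.4% of all genes were called higher. It was 21 with TMM library factors, of which 15 were cytosolic, where 11.6% of all genes were called higher and 16% lower. DESeq2 called 18, against 10.6% of the genes it tested. Genes called in all alternatives that kept the replicate block were 15 of the 28, namely Aars, Cars, Hars, Iars, Mars1, Nars, Rars, Sars, Tars, Vars, Wars, Yars, Aimp1, Aimp2 and Ears2. Without the replicate block the spread between experiments entered the error and 1 member, Nars, was called, against 0.978% of all genes, while 22 of 37 had an unadjusted p under 0.05, beside 1834 of all 10125 genes. Leaving out experiment 3 left 15 called, against 6.34% of all genes, and taking the controls of experiments 1 and 3 alone left 18, against 10.7%.

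Ribosome footprints on the same genes were also more frequent after 18 h. In Ribo-seq 21 of 34 members were called higher and 0 lower, where 24.2% of all 8033 genes were called higher and 6.16% lower. These were 15 of 20 cytosolic enzymes, 4 of 11 mitochondrial enzymes and 2 of 3 scaffold proteins. The median log2 fold change was 0.93 for the cytosolic genes and 0.84 for the mitochondrial genes, against 0.40 for the median gene.

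Nars again led. Its footprints stood at 83.3, 65.1 and 96.4 RPKM in control and at 405, 359 and 294 RPKM in CPA18, far from overlapping. The log2 fold change was 2.09 ± 0.18 (SE) with an adjusted p of 1.34e-28. Tars, the threonyl enzyme, came next among the cytosolic genes, from 55.4, 56.3 and 52.5 RPKM to 212, 172 and 155 RPKM (1.69 ± 0.19, adjusted p 2.99e-16).

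Yars rose from 26.9, 20.6 and 31.2 to 72, 67.7 and 87.3 RPKM and Iars from 25.2, 24.7 and 28.6 to 82.6, 87.4 and 58.7 RPKM. Neither gene's groups overlapped, and the log2 fold changes were 1.53 ± 0.25 and 1.49 ± 0.21 (SE). Eprs rose from 47.5, 39.1 and 45.4 to 126, 129 and 109 RPKM, a log2 fold change of 1.45 ± 0.18 (SE). Wars rose by 1.44 ± 0.18 on the same scale.

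The cytosolic genes that did not pass the test in Ribo-seq were Dars, Farsa, Gars, Kars and Qars. Gars was at 384, 328 and 473 RPKM in control and at 530, 501 and 474 RPKM in CPA18, groups that touched without overlapping, and its log2 fold change of 0.35 ± 0.16 (SE) had an adjusted p of 0.0829. Kars, the lysyl enzyme, was at 70.1, 75.5 and 93.1 RPKM in control and at 51.3, 88.4 and 103 RPKM in CPA18, with a log2 fold change of 0.033 ± 0.21 (SE). Qars was at 42.9, 55.1 and 45 RPKM in control and at 33.3, 51.2 and 52 RPKM in CPA18, with a log2 fold change of 0.00016 ± 0.17 (SE). Kars, Qars and Dars are members of the multi-synthetase complex, of whose 8 enzymes 5 were called, beside 10 of the 12 free enzymes.

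The subunits of the phenylalanyl enzyme, which assemble into a single enzyme, differed in their calls. Farsb changed by 1.04 ± 0.32 (SE) with an adjusted p of 0.00566 and Farsa by 0.63 ± 0.36 (SE) with an adjusted p of 0.185. The ratio of Farsa to Farsb footprints per coding kilobase was 1.51, 0.942 and 0.659 in control and 0.362, 0.994 and 0.811 in CPA18. These ranges overlapped, and a shift between the subunits was not tested. The CPA18 ratio of experiment 1 rested on 5 Farsa and 16 Farsb reads.

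Among the mitochondrial enzymes Cars2, Ears2, Mars2 and Yars2 were called higher in footprints. Yars2 rose from 11.5, 8.13 and 5.24 RPKM to 22.5, 27.9 and 33 RPKM, on 15, 12 and 9 control reads and 6, 9 and 29 CPA18 reads. The groups did not overlap, and the log2 fold change was 1.92 ± 0.42 (SE) with an adjusted p of 5.92e-05. Cars2 rested on 2, 1 and 3 reads in control and 2, 1 and 5 in CPA18, and its call (adjusted p 0.0373) held in 2 of the 11 alternatives in which it could be tested.

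**Figure D3:**
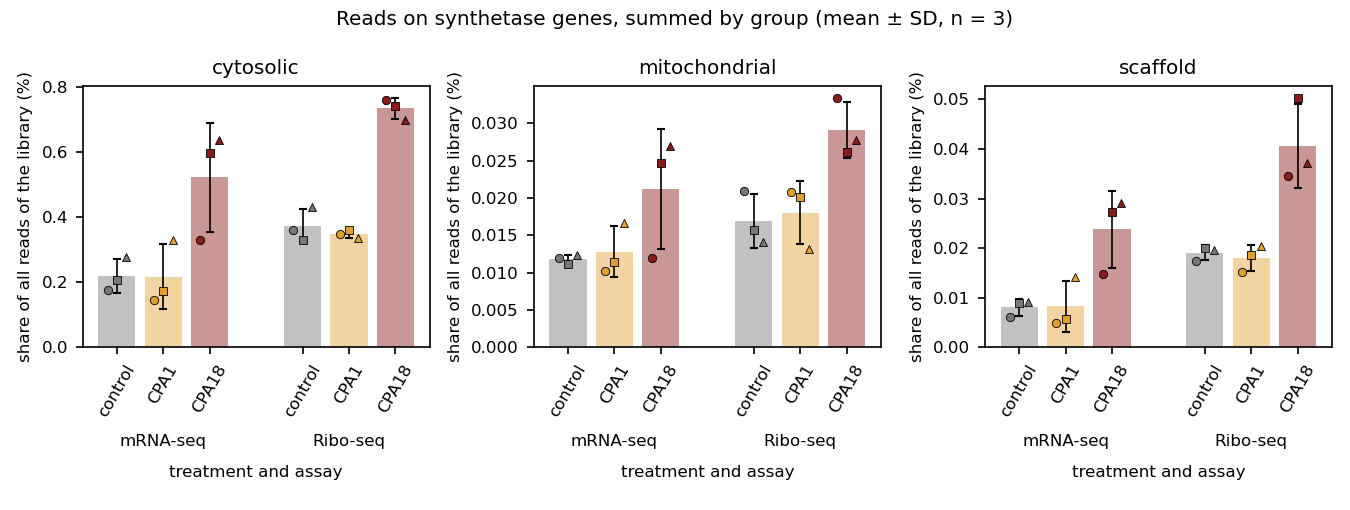
Share of all reads of each library that fell on the cytosolic, mitochondrial and scaffold genes, in percent, as means ± SD of 3 experiments with each library as a point (circle, square and triangle for experiments 1, 2 and 3). In Ribo-seq the 3 CPA18 libraries sit between 0.701 and 0.761% for the cytosolic genes, above the 0.33 to 0.431% of the controls.

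The summed footprint share showed the same split by time. Cytosolic enzymes took 0.761, 0.743 and 0.701% of the CPA18 Ribo-seq reads, against 0.362, 0.33 and 0.431% in control. The mitochondrial share went from 0.0169 ± 0.00357% to 0.0291 ± 0.00377% (SD, n = 3) and that of the scaffold genes from 0.0191 ± 0.00145% to 0.0406 ± 0.00841%. Ins1 and Ins2 together took between 18 and 21.1% of the control Ribo-seq reads and between 5.39 and 7.03% of the CPA18 reads, and their part in the synthetase shares was not tested. With totals that omit Ins1, Ins2 and Lars2, 20 members were called, where 16.7% of all genes were higher. TMM library factors gave 16, where 10.9% of all genes were higher and 12.1% lower, and DESeq2 gave 10, where 7.74% were higher. Without the replicate block 21 were called, against 19.9% of all genes.

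Members called in both assays numbered 19, which is 67.9% of those called in mRNA-seq and 90.5% of those called in Ribo-seq. Of the members called in Ribo-seq, Cars2 and Mars2 were not called in mRNA-seq. Those called in mRNA-seq but not in Ribo-seq included Eef1e1, Farsa, Gars, Kars and Tars2, together with Pars2 and Wars2, which were not tested in Ribo-seq. Passing in one assay and missing in the other does not show that the assays differ.

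Ribosome occupancy, the footprint change beyond the mRNA change, was tested for that difference, with a term for assay by treatment fitted to all 18 libraries. At 18 h 0 of 34 members were called, where 0.462% of all 7794 genes were, and 4 had an unadjusted p under 0.05, among them Aars, Kars and Vars. Over all 7794 genes 702 had such a p, a share near that of the members. The median for the cytosolic genes was -0.39 on the log2 scale, against 0.035 for the median gene. Kars had the lowest unadjusted p, with an interaction of -0.88 ± 0.32 (SE), lower in 3 of 3 experiments, and an adjusted p of 0.317. Eprs, whose footprints rose by more than its mRNA in these fits, was not called either. At 1 h, and between 1 h and 18 h, 0 members were called by edgeR, where 0.0898 and 0.077% of all genes were, and 2 had an unadjusted p under 0.05 in each comparison, beside 548 and 443 of all 7794 genes. DESeq2 also called 0, but in these comparisons it gave an adjusted p for only 1901 and 541 of the 7794 genes. A member without an adjusted p could not be called there. The other alternatives called 0 as well.

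The change between the time points was tested directly by comparing CPA18 with CPA1. In mRNA-seq 24 of 37 members were higher in CPA18 and 0 lower, where 24.6% of all genes were higher and 4.67% lower. They were 18 of 20 cytosolic, 3 of 14 mitochondrial and 3 of 3 scaffold genes. In Ribo-seq 20 of 34 were higher and 0 lower, where 16.8% of all genes were higher and 5.39% lower, made up of 15 cytosolic, 3 mitochondrial and 2 scaffold genes. Since the comparisons with control and with CPA1 share the CPA18 libraries, they are not independent.

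**Figure D4:**
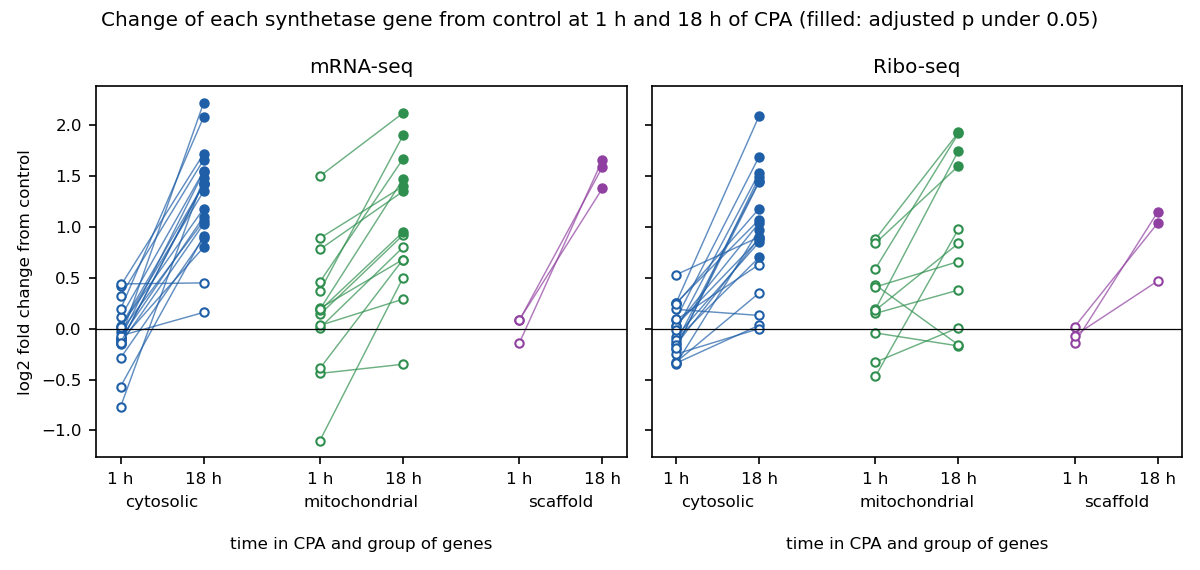
Log2 fold change from control at 1 h and 18 h of CPA for each member, joined by a line, in mRNA-seq (left) and Ribo-seq (right), by group of genes. Filled points passed an adjusted p of 0.05, which no member did at 1 h and 28 of 37 and 21 of 34 did at 18 h.

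Nars and Tars had the largest steps from CPA1 to CPA18 in mRNA-seq. Tars mRNA was at 25.5, 8.53 and 8.98 RPKM in control, at 9.72, 4.01 and 9.02 RPKM in CPA1 and at 44.6, 30.4 and 30.4 RPKM in CPA18. The change from CPA1 to CPA18 was 2.25 ± 0.33 (SE) with an adjusted p of 1.23e-05. In Nars the same step was 2.32 ± 0.26 (SE) in mRNA-seq and 1.84 ± 0.18 (SE) in Ribo-seq, with adjusted p-values of 1.8e-07 and 1.87e-21. Gars, which missed the test against control in Ribo-seq, passed it against CPA1, with 0.68 ± 0.16 (SE) and an adjusted p of 0.000379.

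The calls for mitochondrial genes between the time points depended on the scaling. In mRNA-seq Cars2, Ears2 and Yars2 were called, and 0 mitochondrial genes were once the totals omitted Ins1, Ins2 and Lars2 or TMM library factors were used. Each of these left 17 members called, 15 of them cytosolic, where 12.8 and 10.7% of all genes were called higher, and with TMM 13.1% lower. In Ribo-seq TMM library factors left 12 members called, of which 11 were cytosolic, where 8.48% of all genes were higher and 10.1% lower. DESeq2 also left 12, where 8.27% of the genes it tested were higher, and the totals without the 3 genes left 19, where 11.2% were. Without the replicate block 1 member was called in mRNA-seq, against 0.741% of all genes, and 19 in Ribo-seq, against 13.4%.

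Other genes of tRNA charging and tRNA supply were called in mRNA-seq at a share near that of all genes. Their count in Ribo-seq is not given here. Of 16 listed genes tested in mRNA-seq, 3 were called higher at 18 h and 0 lower, where 19.7% of all genes were called higher, and the median log2 fold change was 0.51 beside 0.30 for the median gene. Xpot, which exports tRNA from the nucleus, was among them, from 4.79, 1.42 and 1.52 RPKM to 8.44, 6.16 and 8.7 RPKM (1.85 ± 0.37 SE, adjusted p 0.000631). The other two were Elac2, which trims the 3′ ends of tRNA precursors, and Qrsl1, a subunit of the mitochondrial glutamyl-tRNA amidotransferase. Tarsl2, a second cytosolic threonyl enzyme, had a log2 fold change of 0.31 ± 0.46 (SE) in mRNA-seq and -0.018 ± 0.32 (SE) in Ribo-seq, beside 1.48 ± 0.32 and 1.69 ± 0.19 for Tars.

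At 18 h most amino acid response genes were higher. In all, 21 of 23 were called higher in mRNA-seq and 22 of 23 in Ribo-seq, where 19.7 and 24.2% of all genes were, with median log2 fold changes of 2.63 and 2.35. Asns went from 47, 60.5 and 104 RPKM to 104, 231 and 233 RPKM in mRNA-seq, a log2 fold change of 1.47 ± 0.27 (SE) with an adjusted p of 0.000271. Trib3, a pseudokinase gene induced in this response, changed by 5.25 ± 0.36 (SE). The lists were described by their counts only, and no test compared them with the synthetases.

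By promoter class, the 5 cytosolic genes with a TGATGNAA match were all called higher in mRNA-seq at 18 h, with log2 fold changes from 0.80 for Gars to 2.08 for Yars. Of the 8 cytosolic genes with a window and no match, 6 were called, with values from 0.16 for Qars to 1.42 for Mars1. The 7 without a window in the table, Nars among them, were all called, with values from 1.03 to 2.22. In Ribo-seq 4 of the 5 with a match and 4 of the 8 without were called. The 11 mitochondrial genes with a window held no match, and 4 of them were called in mRNA-seq. In mRNA-seq most cytosolic genes of each class were called, and the 7 without a window could not be scored for a match. Over all genes 19.7% were called higher in mRNA-seq and 24.2% in Ribo-seq. No test compared these classes.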

How the data were processed

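MIN6 cells were profiled by mRNA-seq and Ribo-seq in 3 experiments, in 18 libraries. Per the submitters' processing notes, reads were aligned with Bowtie2 to GRCm38. The authors deposited raw counts per RefSeq transcript, and the deposited RPM and RPKM values were made by the authors from the counts, the library totals and the transcript length. Counts were summed over the NM_ transcripts of a gene. Of 30741 transcripts, 30232 matched the GRCm38.p6 annotation with their version and 478 without it, and 31 did not. Genes with at least 1 read in all 9 libraries of an assay were tested with edgeR's quasi-likelihood test (edgeR 4.0.16, R 4.3.3), scaled to the library totals and blocked on experiment, with Benjamini-Hochberg adjustment over all genes and a threshold of 0.05. Occupancy was the assay-by-treatment term fitted over 7794 genes with reads in all 18 libraries. The script was tested on simulated data. Levels of single genes are summed deposited RPKM, and footprints per coding kilobase use the coding length of the most-read transcript. Promoter windows came from RefSeq.

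The labels call the replicate numbers batches, so that libraries of the same number were treated as paired. As a check, their deviations from the group means correlated with a mean r of 0.551 in mRNA-seq (9 of 9 pairs above 0.1) and 0.135 in Ribo-seq (8 of 9). Whether the experiments used separately grown cultures is not given in the labels, so p-values measure the spread between these libraries, which may be partly technical. The members described in full were the up to 8 largest increases among those past the threshold, with members of complexes and pairs named whatever the test gave. Members and lists were chosen with earlier results of these data known. Alternatives were TMM factors, DESeq2 1.42.0, limma 3.58.1 on log2(RPKM + 0.5) and log2(RPKM + 1), other filters, transcript choices and totals, a GC and length correction, no block, and leaving out replicates. The same-labelled replicate libraries differed by more than sampling noise. Some values are not reported here, and the counts cover every member.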

Additional observations from a re-analysis of the deposited data

Results flagged for a closer look

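The change from control differed between 18 h and 1 h of CPA for 24 of 37 members in mRNA-seq and 20 of 34 in Ribo-seq, by edgeR's test of CPA18 against CPA1, which is the difference of the 2 changes since both share the control. All of these members were higher at 18 h. In the same comparison 24.6% of all genes were called higher in mRNA-seq and 16.8% in Ribo-seq.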

How the results depend on the processing

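The counts of members called after 18 h rested on the block for experiment in mRNA-seq. Without the replicate block, 1 of the 28 calls against control and 1 of the 24 against CPA1 were left, while 21 and 19 were called in Ribo-seq. DESeq2 called 18 in mRNA-seq and 10 in Ribo-seq against control, and 12 in Ribo-seq against CPA1, as did TMM library factors (12). With controls taken from experiments 1 and 3 alone, 18 were called in mRNA-seq against control. Leaving out 1 replicate at a time gave 15 to 25 calls in mRNA-seq against control (15 without experiment 3) and 18 to 22 against CPA1, and 18 to 19 and 15 to 18 in Ribo-seq. Without experiments 1, 2 and 3, 1688, 1111 and 642 of all 10125 genes were called higher in mRNA-seq against control. Against CPA1 they were 1938, 988 and 1494. Of all 8033 genes in Ribo-seq, 1304, 1199 and 1336 were called higher against control, and 900, 878 and 908 against CPA1. The cause of these shifts in the counts was not tested. The members called against control, 28 and 21, were higher under every alternative in which they were tested. At 1 h and in occupancy 0 members were called under every alternative, though DESeq2 gave many genes no adjusted p there. Depth limits the mitochondrial genes, of which 8 of 14 had 3 reads or fewer in at least 1 control mRNA-seq library, so that a missed call there is not evidence of no change.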
